A study of Mus musculus with 31 samples.

Results

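The well-studied long noncoding RNA (lncRNA) genes Malat1, Neat1, Gas5, Snhg1, Snhg3, Snhg12, Norad, Dnm3os, Pvt1 and Hotair were examined for accessible chromatin in mouse fibroblasts. These 10 genes were chosen by name, out of 55413 annotated genes of which 13374 were lncRNA genes and 21938 were protein-coding. The data came from a single ATAC-seq library of the parental line NIH-3T3, fibroblasts derived from mouse embryos, which carried no transcription factor (TF) transgene and for which the labels list no doxycycline. In ATAC-seq a transposase, Tn5, inserts sequencing adapters where nucleosomes leave DNA open. The labels give 50000 cells, 0.5 µM Tn5 and 12 PCR cycles. The other 30 samples of the series came from lines overexpressing 13 TFs or rtTA3G alone, given 500 ng/ml doxycycline for 48 h, and were not analysed here. RNA was not measured in this library, so how abundant these transcripts were could not be checked, and a peak at a start site was read as accessibility and not as expression.

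The authors deposited a list of 63456 peaks. Each carried a fold enrichment, which is the fragment pileup at the summit over the local expected pileup with 1 added to each, and a −log10 q. The fold and the −log10 p of each peak were solved for the fragments at the summit. Over the list, the separate medians were a fold of 6.04, a width of 327 bp and 29 fragments. With a single library there was no replicate error. Intervals given here are 95% intervals that cover counting error only, and no difference was tested. Of 12 fibroblast marker genes, 11 had a peak within 1 kb of a transcription start site (TSS), among them Col1a1 and Twist1, and Lum had none. A TSS peak was also present at 1 of 5 epithelial, 2 of 5 blood, 3 of 4 endothelial and 0 of 4 neural markers, where 53.7% of all protein-coding genes had one. The strongest TSS peaks of the fibroblast markers had a median fold of 6.62 (3.41 to 10.5), and those of the endothelial markers were higher at the median, with 8.40 at Pecam1, 12.8 at Cdh5 and 3.58 at Tek. The epithelial peak had a fold of 3.25 and the blood peaks 2.89 and 3.22.

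Long noncoding RNAs are transcribed by RNA polymerase II and often spliced, but are not translated into a long protein. Several act in the nucleus. Malat1 accumulates in nuclear speckles, Neat1 is the scaffold of paraspeckles and Hotair is transcribed antisense from the HoxC cluster. Gas5, Snhg1, Snhg3 and Snhg12 carry small nucleolar RNAs (snoRNAs) in their introns, and their spliced exons are often turned over quickly when translation runs. Norad binds Pumilio proteins in the cytoplasm, Dnm3os is the precursor of miR-199a and miR-214, and Pvt1 lies next to the oncogene Myc.

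All 10 genes had a peak within 1 kb of a TSS, against 21.3% of all lncRNA genes and 53.7% of all protein-coding genes. The 95% Wilson intervals of those background shares were 20.6 to 22.0% and 53.1 to 54.4%. When only the 5′ end of each gene was used, the members stayed at 10, and the shares were 20.5% of lncRNA genes and 48.9% of coding genes. A peak covered a start base at 8 members, without Malat1 and Hotair, beside 12.9% of lncRNA and 48.7% of coding genes. The members were chosen with earlier results of these data known, which limits how their share can be read beside these backgrounds. The strength of the members' TSS peaks lay near that of other genes with a TSS peak. The strongest TSS peak of the members had a median fold of 8.32, beside 8.60 over the 2850 lncRNA genes with such a peak and 9.86 over the 11788 coding genes. Their median width was 648 bp, beside 668 and 796 bp, and their median of 52 fragments was beside 53 and 64. Of the members, 5 were above the lncRNA median fold and 3 were above the coding median.

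In order of fold, Dnm3os stood highest at 11.4 (9.39 to 13.8), followed by Snhg1 at 11.0 (9.01 to 13.4), Snhg12 at 10.7 (7.75 to 14.3), Pvt1 at 9.15 (6.99 to 11.8) and Snhg3 at 8.95 (6.46 to 12.1). Malat1 at 7.68 (5.67 to 10.2), Gas5 at 7.49 (6.01 to 9.23), Norad at 6.04 (3.88 to 9.01), Neat1 at 4.41 (3.38 to 5.67) and Hotair at 3.77 (2.22 to 6.07) made up the lower part. All 9 pairs of neighbours in this order had overlapping counting intervals, so the order is not resolved gene by gene. The upper end of Neat1's interval, 5.67, lay below the lower ends for Gas5, Snhg3, Pvt1, Snhg12, Snhg1 and Dnm3os. That of Hotair, 6.07, lay below those for Snhg3, Pvt1, Snhg12, Snhg1 and Dnm3os. These intervals hold the expected pileup fixed, and it was highest at Neat1, with 12.6 fragments. They therefore do not rank the promoters by accessibility.

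**Figure D1:**
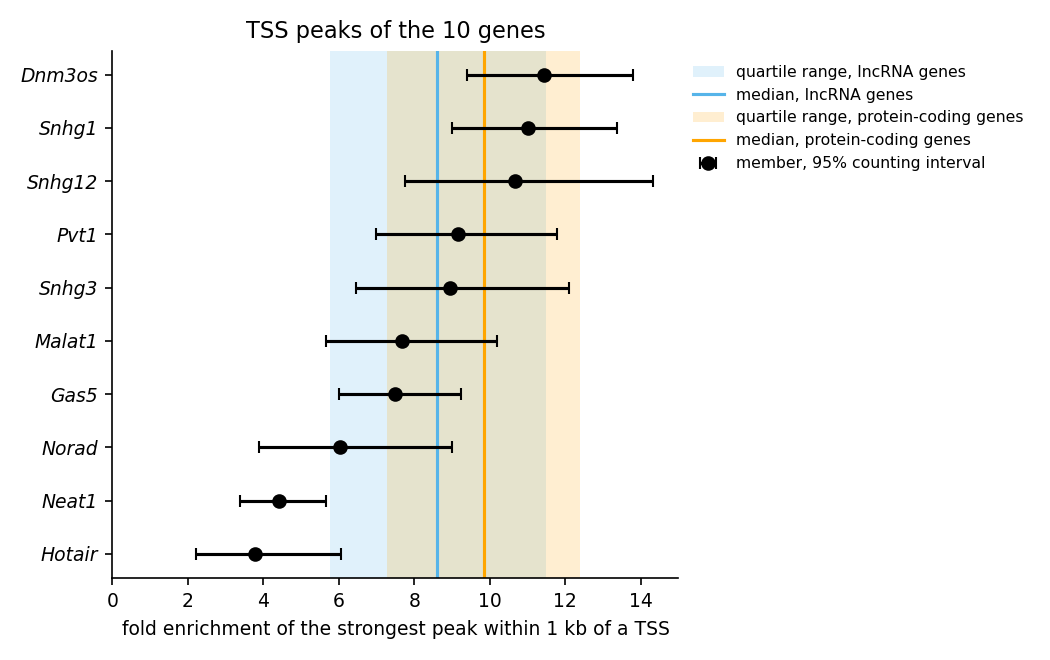
Fold enrichment (x axis, no unit) of the strongest peak within 1 kb of a TSS for each of the 10 genes, with bars for the 95% counting interval, over the quartile range (shaded) and median (line) of lncRNA and protein-coding genes that have a TSS peak. Dnm3os, Snhg1 and Snhg12 sat to the right of both medians, and Neat1 and Hotair sat to the left of both quartile ranges.

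Each of the genes, counted with 25 kb to either side, had more peaks per 100 kb than the median lncRNA gene. In all, 68 different peaks lay in the 10 genes or within 25 kb of them, 12 of them within 1 kb of a TSS of the gene and 7 counted for a pair of neighbouring members. The number of peaks per 100 kb had a median of 7.05 over the members, beside 2.72 over all lncRNA genes and 3.84 over all coding genes. It was above the lncRNA median for all 10 and above the coding median for 9, with Snhg12 at 3.82 as the exception. Malat1 had the highest density at 15.8, followed by Neat1 at 14.1, Dnm3os at 13.8 and Snhg1 at 11.3. The windows of Malat1 and Neat1 shared the 6 peaks between these genes. Peaks at the TSS and in the gene body count toward the density. All 10 members had a TSS peak and 21.3% of all lncRNA genes did, so the densities do not describe the surroundings alone.

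**Figure D2:**
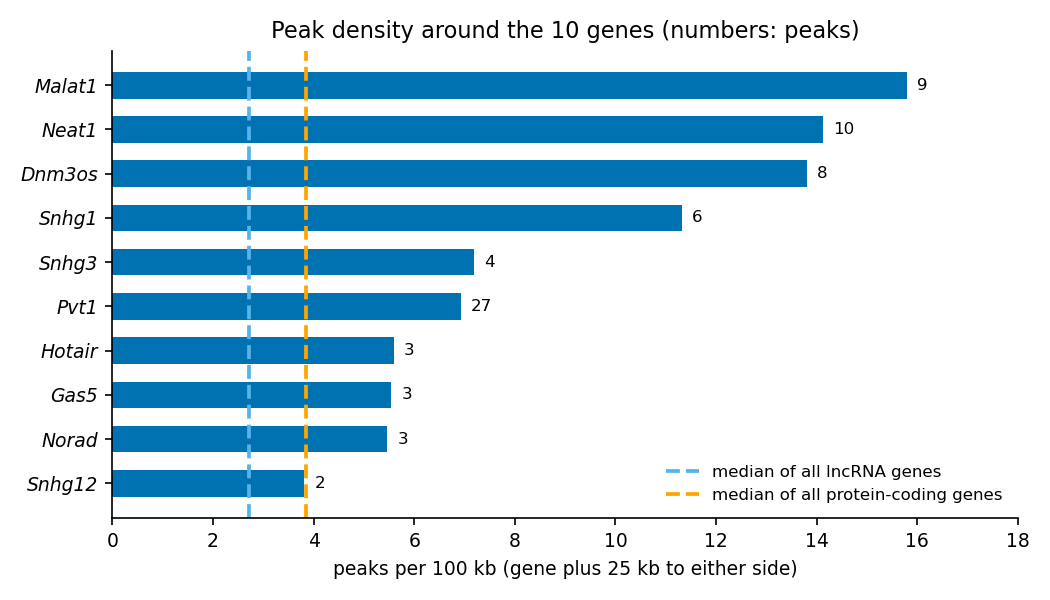
Peaks per 100 kb (x axis) in each gene plus 25 kb to either side, with the number of peaks at the end of each bar and dashed lines for the medians of all lncRNA and all protein-coding genes. Malat1, Neat1, Dnm3os and Snhg1 were above 11 peaks per 100 kb, and Snhg12 had the lowest density with 2 peaks.

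**Figure D3:**
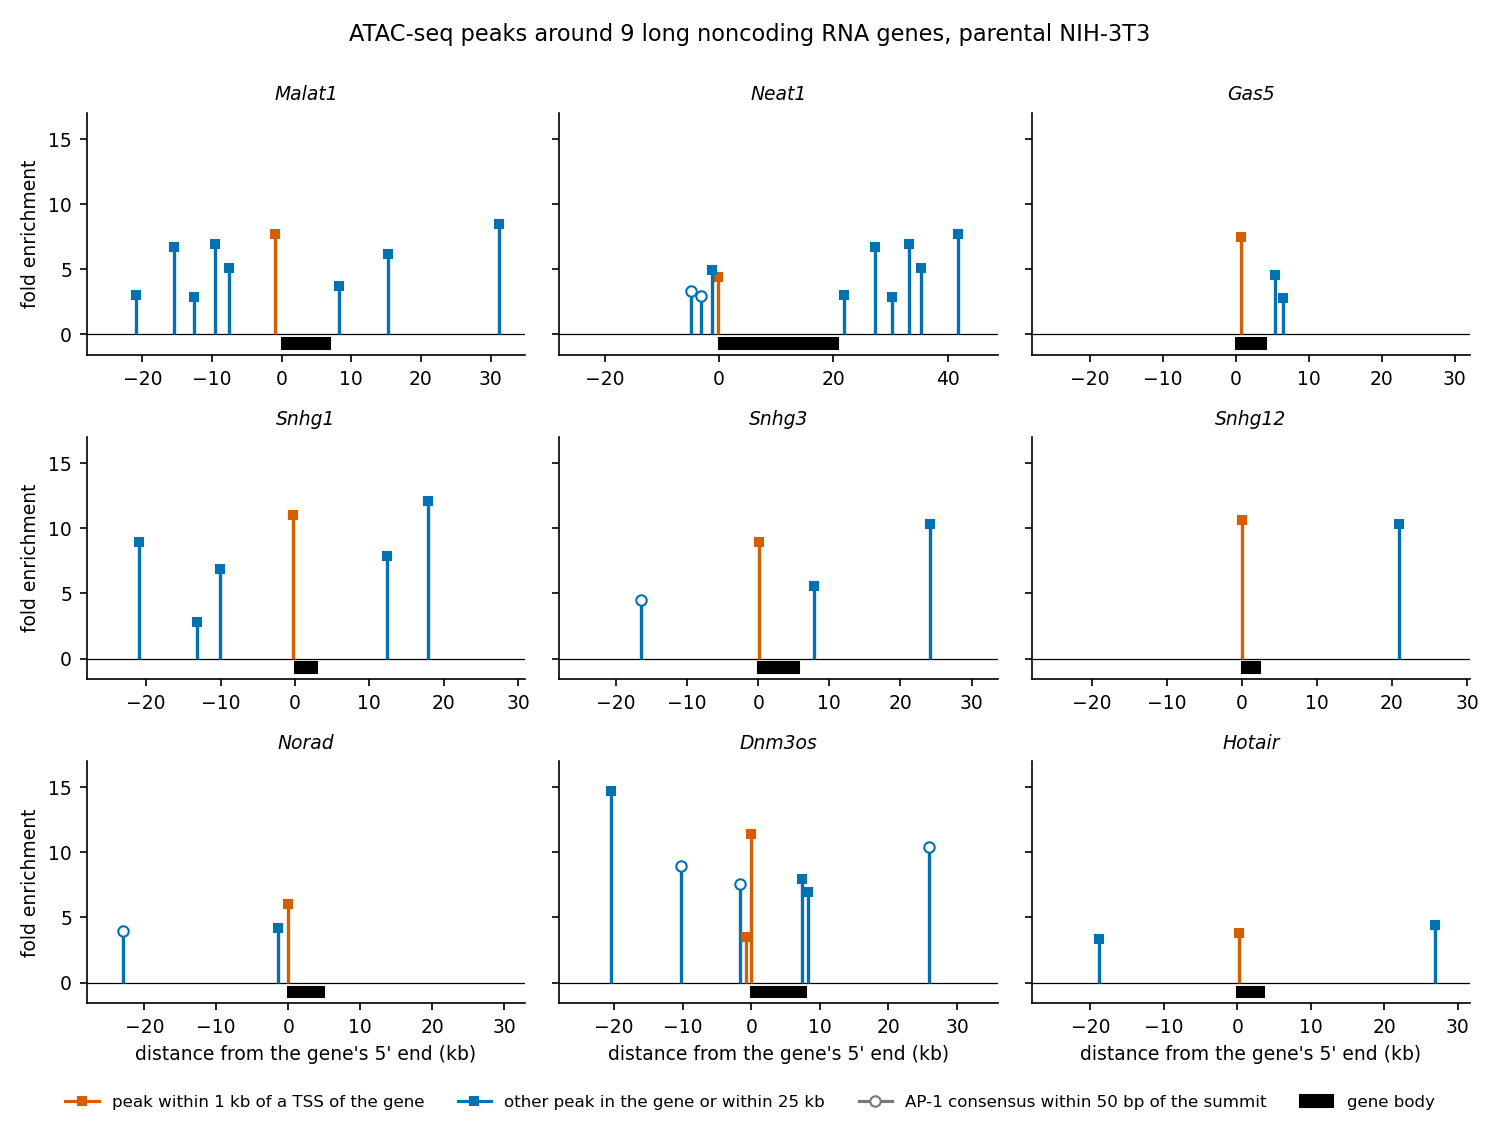
Fold enrichment (y axis) against the distance of the peak summit from the annotated 5′ end in the direction of transcription (x axis, kb) for the 9 shorter genes, with the gene body as a black bar. Orange stems mark peaks within 1 kb of a TSS of the gene, blue stems all other peaks, and open circles an AP-1 consensus at the summit. Dnm3os was surrounded by peaks with a fold of up to 14.7, whereas the 3 peaks at Hotair all had a fold below 5.

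Among the snoRNA hosts, Snhg1 (chr19:8723475-8726443, plus strand) carried 8 annotated snoRNAs. Its TSS peak at chr19:8722791-8723635 was 845 bp wide, had 102 fragments (83.2 to 124) where 8.34 were expected, and reached a −log10 q of 69.0. The fold was higher than at 71.3% of the lncRNA genes with a TSS peak. This peak also held 2 start sites of Slc3a2, the heavy chain of an amino acid transporter, which runs on the opposite strand with its nearest TSS 106 bp away. The flanks of Snhg1 held a peak of fold 12.1 at Stx5a, 17.9 kb downstream of the 5′ end, one of 8.93 at 20.9 kb upstream, and one of 7.87 at Wdr74. Stx5a and Wdr74, like the other genes named only for a flanking peak, were named after the values had been seen.

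Gas5 (chr1:161034422-161038539, plus strand), named for its accumulation in growth-arrested cells, carried 10 snoRNA models at 9 places. Its TSS peak at chr1:161034299-161035507 was the widest of the members at 1209 bp, wider than at 87.9% of lncRNA genes with such a peak. It had 86 fragments (68.8 to 106) where 10.6 were expected, and a −log10 q of 44.4. The summit lay 719 bp downstream of the annotated 5′ end of the gene and 22 bp before another annotated start site. The peak also held 4 start sites of Zbtb37, a zinc finger gene on the opposite strand 80 bp away, and 1 of the snoRNAs. Only 2 more peaks lay within 25 kb, with a fold of 4.60 and 2.79.

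Snhg12 and Snhg3 lie on chromosome 4, 37.0 kb apart and on opposite strands. Snhg12 (chr4:132308623-132311024, plus strand) carried 5 snoRNA models at 4 places. Its TSS peak at chr4:132308338-132308997 was 660 bp wide with 42 fragments (30.3 to 56.8) where 3.03 were expected, its summit 9 bp past the 5′ end. No start of another gene lay in this peak, and the nearest coding gene start, of Rab42, was 5238 bp away. Snhg3 (chr4:132348014-132353686, minus strand) carried 2 snoRNAs, and its TSS peak at chr4:132353461-132353963 had 40 fragments (28.6 to 54.5) where 3.58 were expected. A start site of Rcc1, the chromatin-bound exchange factor for Ran, lay on the same strand 28 bp from a start of Snhg3 and inside the same peak. A peak of fold 10.4 at Trnau1ap lay between both genes and within 25 kb of each.

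Gas5, Snhg1 and Snhg3 were thus the 3 members with a coding gene start inside their TSS peak. The same share over all lncRNA genes with a TSS peak is not given here, so this count has no background. Within a single peak, the accessibility of the lncRNA start and that of the coding start cannot be told apart. The peak list has no strand, and at Snhg3 both starts lie on the same strand.

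The snoRNA host promoters are shown because start sites of this class of gene often begin at a C followed by pyrimidines, the 5′ terminal oligopyrimidine (TOP) motif. Sequences are from RefSeq on GRCm38, run from 250 bases before to 50 bases after the RefSeq start, and are given 5′ to 3′ on the strand of the gene. Capitals mark matches on either strand to the motifs searched, which were AP-1 TGACTCA, the cAMP response element TGACGTCA, the E-box CACGTG, the CCAAT box CCAAT, ETS CCGGAA, the GC box GGGCGG, the NRF1 core GCGCATGC, the TATA box TATAAA, and, by name, the CArG box of the serum response factor (SRF) and the decamer from which p53 sites are built. No different motifs shared a base in the sequences shown.
Gas5, second RefSeq start, chr1:161034916-161035215, plus strand: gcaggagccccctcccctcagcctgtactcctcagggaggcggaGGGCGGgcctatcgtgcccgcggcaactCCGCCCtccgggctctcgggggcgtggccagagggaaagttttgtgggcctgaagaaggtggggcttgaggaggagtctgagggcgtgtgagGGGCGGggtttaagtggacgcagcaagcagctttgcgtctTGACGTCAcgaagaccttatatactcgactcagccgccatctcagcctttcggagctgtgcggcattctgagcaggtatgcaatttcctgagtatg
Snhg1, chr19:8723237-8723536, plus strand: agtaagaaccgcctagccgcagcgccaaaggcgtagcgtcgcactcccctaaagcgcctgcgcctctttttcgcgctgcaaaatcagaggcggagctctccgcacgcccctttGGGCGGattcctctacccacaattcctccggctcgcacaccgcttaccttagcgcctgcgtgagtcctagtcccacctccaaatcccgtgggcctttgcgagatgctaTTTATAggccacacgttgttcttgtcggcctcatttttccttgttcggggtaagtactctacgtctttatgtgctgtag
Snhg12, chr4:132308428-132308727, plus strand: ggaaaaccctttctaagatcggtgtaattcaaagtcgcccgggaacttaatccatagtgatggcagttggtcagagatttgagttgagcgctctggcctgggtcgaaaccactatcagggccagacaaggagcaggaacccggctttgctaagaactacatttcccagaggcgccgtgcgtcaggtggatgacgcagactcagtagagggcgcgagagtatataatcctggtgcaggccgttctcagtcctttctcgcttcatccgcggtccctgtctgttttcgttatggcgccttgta
Snhg3, chr4:132353637-132353936, minus strand: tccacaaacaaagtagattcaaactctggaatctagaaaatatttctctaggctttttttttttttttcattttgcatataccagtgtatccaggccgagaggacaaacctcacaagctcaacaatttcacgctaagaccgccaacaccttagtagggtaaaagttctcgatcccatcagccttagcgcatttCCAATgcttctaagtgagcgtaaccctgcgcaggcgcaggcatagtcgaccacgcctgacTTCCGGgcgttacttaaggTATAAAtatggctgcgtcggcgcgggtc

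The Gas5 start shown, 25 bp from the peak's summit, fell exactly on a C followed by at least 4 pyrimidines, which held for 2.51% of all 32851 RefSeq promoters. Such a stretch began within 5 bases of the RefSeq start for Gas5, Snhg12, Snhg3 and Dnm3os, and for 18.4% of all promoters. It was absent there at Snhg1, at Malat1 and at the first RefSeq start of Gas5. None of the 10 GENCODE 5′ ends fell exactly on such a stretch. Within 5 bases, 2 of these 10 ends had one, those of Snhg3 and Dnm3os, beside 17.5% of lncRNA and 18.999% of coding genes. By the GENCODE ends, the members' share thus lay near both backgrounds. Gas5 also held a cAMP response element 46 bases before the RefSeq start, a motif found in 1.79% of all promoters. Snhg1 held TATAAA on the minus strand beginning 29 bases before its start and Snhg3 on the plus strand beginning 22 bases after it, where 13.6% of all promoters hold this motif at any place. Snhg1 and Gas5 held GC boxes, which were in 35.7% of promoters. Snhg3 held a CCAAT box, in 37.4% of promoters, and an ETS motif, in 14.9%. None of the searched letters were in the Snhg12 window. The shares of all promoters with the remaining motifs were 5.20% for AP-1, 7.15% for the E-box, 2.71% for the NRF1 core, 1.63% for the CArG box and 8.36% for the p53 decamer.

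Malat1 (chr19:5795690-5802672, minus strand) and Neat1 (chr19:5824708-5845478, minus strand) are neighbours, 22.0 kb apart. Malat1's TSS peak at chr19:5803181-5804086 began 509 bp upstream of the annotated 5′ end and had its summit 1.01 kb upstream. It was 906 bp wide with 46 fragments (33.7 to 61.4) where 5.12 were expected, and its −log10 q was 25.4. No peak touched the body of Malat1, as for 69.8% of all lncRNA genes, and Malat1 was the one member without a body peak. The gene's RefSeq start coincided with the GENCODE 5′ end, and none of the bases of this promoter lay in a peak.
Malat1, chr19:5802623-5802922, minus strand: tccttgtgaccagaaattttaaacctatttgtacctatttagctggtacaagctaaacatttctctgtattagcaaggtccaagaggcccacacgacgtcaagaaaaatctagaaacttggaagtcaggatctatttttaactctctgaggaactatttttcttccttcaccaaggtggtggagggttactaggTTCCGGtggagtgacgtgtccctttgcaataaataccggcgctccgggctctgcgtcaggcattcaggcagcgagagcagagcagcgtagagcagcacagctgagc

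The capitals in Malat1 mark an ETS motif 56 bases before the start. The peak upstream of Malat1 fell within 1 kb of the TSS but outside the 500 bp distance, so Malat1 was counted as accessible only at the wider distance.

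Neat1's TSS peak at chr19:5845400-5846021 had more fragments than Malat1's, 59 (44.9 to 76.1), but a lower fold of 4.41, and 12.6 fragments were expected there. That expected value was higher than at 98.7% of all peaks. The fold was higher than at 11.3% of the lncRNA genes with a TSS peak. The peak also held the start of Frmd8os, an antisense gene 145 bp away on the plus strand. It was the one peak that touched the 20771 bp of Neat1. Beyond it, peaks at 1.30, 3.11 and 4.87 kb upstream had a fold of 4.93, 2.93 and 3.36, the outer pair with an AP-1 consensus at the summit.

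Between Malat1 and Neat1 lay 6 peaks, counting the TSS peak of Malat1. The others had a fold of 6.96, 6.72, 5.07, 3.00 and 2.84. In the whole region, 13 peaks lay in either window, and the expected pileup at their summits had a median of 7.87 fragments (lowest 4.00, highest 12.6), beside 3.79 over all peaks. The fold of a peak falls with the expected pileup, and its part in the low fold at Neat1 was not tested.

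**Figure D4:**
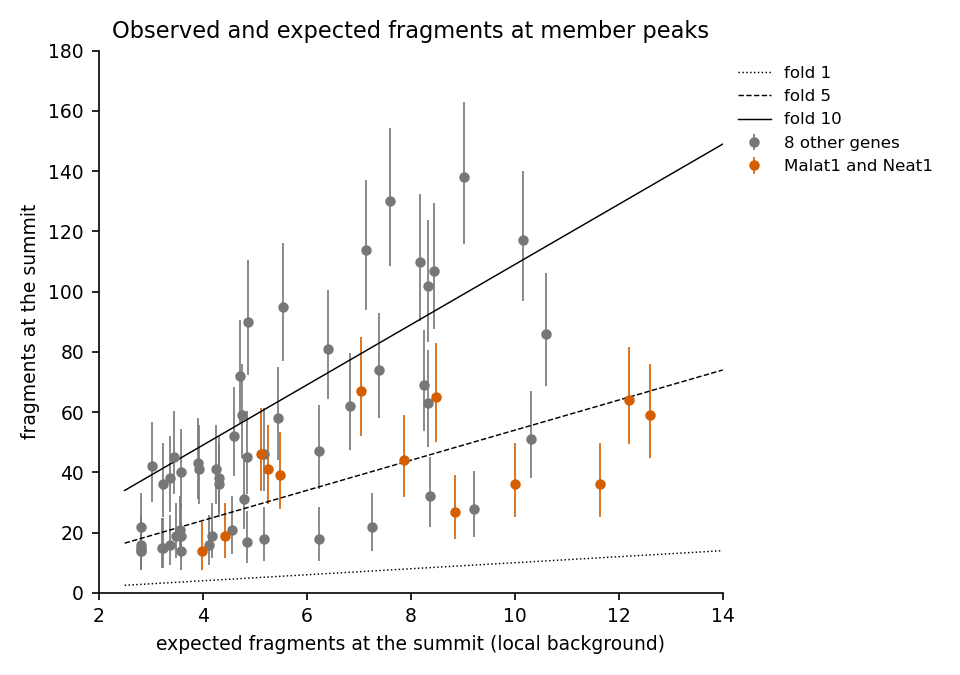
Fragments at the summit (y axis, with 95% counting intervals) against the fragments expected there (x axis) for the 68 peaks, with lines for a fold of 1, 5 and 10. The 13 peaks around Malat1 and Neat1 reached the highest expected value, 12.6, and none reached a fold of 10.

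Norad (chr2:156388065-156392979, minus strand) is listed in GENCODE as 2900097C17Rik. Its TSS peak at chr2:156392898-156393050 was the narrowest of the members, 153 bp, with 22 fragments (13.8 to 33.3) where 2.81 were expected, the lowest value that occurs in the list. Its −log10 q was 10.8 and its width was above that at 6.35% of lncRNA genes with a TSS peak. The summit lay 8 bp upstream of the 5′ end. Norad had no neighbour close by, its nearest coding start being that of Epb41l1 at 27930 bp, and had 2 more peaks with a fold of 4.20 and 3.94. The window of 50 bp to either side of the TSS peak's summit is shown because it held the ETS motif CCGGAA at 2 places, which 11.3% of 16264 TSS peak summits held at least once.
Norad, chr2:156392937-156393037, minus strand: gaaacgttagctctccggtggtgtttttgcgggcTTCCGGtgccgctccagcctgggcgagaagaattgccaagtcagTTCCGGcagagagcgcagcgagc

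Hotair (chr15:102944062-102947730, minus strand) had the weakest TSS peak. It lay at chr15:102947395-102947574, beginning 156 bp inside the gene from its 5′ end, and was 180 bp wide. It had 15 fragments (8.40 to 24.7) where 3.24 were expected, and its −log10 q was 4.26. Its fold of 3.77 was higher than at 6.25% of lncRNA genes and 3.27% of coding genes with a TSS peak. Neither the start base itself nor any position upstream within 1 kb lay in a peak. Within 25 kb, the other peaks were 1 of fold 4.45 at 26.8 kb downstream of the 5′ end, near Hoxc13, and 1 of fold 3.32 at 18.9 kb upstream, near Hoxc10 and Hoxc5. The nearest coding start was that of Hoxc11, 6697 bp away on the opposite strand, and a start of the small RNA model Gm27443 lay inside the TSS peak. The window at the summit is shown with its CArG box in capitals, beginning 41 bases downstream of the summit.
Hotair, chr15:102947494-102947594, minus strand: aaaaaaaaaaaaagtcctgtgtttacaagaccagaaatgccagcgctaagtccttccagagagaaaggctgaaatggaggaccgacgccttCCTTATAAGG

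Dnm3os (chr1:162217623-162225550, plus strand) is transcribed antisense from within the dynamin 3 gene, and had the strongest TSS peak of the 10. The peak at chr1:162217299-162217955 was 657 bp wide, had 107 fragments (87.7 to 129) where 8.45 were expected, and reached a −log10 q of 73.8, higher than at 85.3% of lncRNA genes with such a peak. The summit lay 28 bp before the 5′ end. A weaker peak of fold 3.52 lay 0.717 kb upstream. The ratio of observed to expected CpG in the promoter was 0.298, which only Hotair undercut at 0.294 among the members. The members had a median of 0.634, beside 0.493 for lncRNA genes and 0.744 for coding genes with a TSS peak, and Snhg1 at 1.10 was the highest.
Dnm3os, chr1:162217373-162217672, plus strand: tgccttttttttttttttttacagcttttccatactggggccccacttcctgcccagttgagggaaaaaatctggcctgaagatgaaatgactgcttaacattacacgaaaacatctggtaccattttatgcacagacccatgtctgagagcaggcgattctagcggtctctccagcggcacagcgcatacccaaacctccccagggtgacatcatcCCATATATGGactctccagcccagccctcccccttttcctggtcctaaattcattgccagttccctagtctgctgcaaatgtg

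The capitals in Dnm3os mark a CArG box, which begins 33 bases before the start and 5 bases before the summit of the peak. The motif was present at the summits of 2 of the 12 TSS peaks of the members, Dnm3os and Hotair, and of 0.400% of all TSS peaks. A cAMP response element was present at Gas5 and Pvt1, also 2 of the 12, and at 1.36% of all TSS peaks. The GC box was at 1 of the 12, beside 30.5% of all TSS peaks, ETS at 1, beside 11.3%, and the TATA box at 1, beside 1.86%. None of the 12 held the CCAAT box (19.9% of all TSS peaks), the E-box (3.86%), the NRF1 core (1.58%) or the p53 decamer (2.38%).

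Dnm3os is the host of Mir199a-2 and Mir214. The hairpin of Mir199a-2, at chr1:162217814-162217923, lay wholly inside the TSS peak and 191 bp from the 5′ end. That of Mir214, at chr1:162223368-162223477, was 5745 bp from the 5′ end and 1306 bp from the nearest peak. The mature miRNAs are shown from RefSeq on GRCm38, with the seed, bases 2 to 8, in capitals. The 4 seeds all differed.
miR-199a-5p: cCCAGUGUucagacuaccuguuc
miR-199a-3p: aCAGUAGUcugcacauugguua
miR-214-5p: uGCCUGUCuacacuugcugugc
miR-214-3p: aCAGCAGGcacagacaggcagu

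Dnm3os had 6 further peaks. The strongest, 20.5 kb upstream, had a fold of 14.7 and 95 fragments where 5.54 were expected. Peaks with an AP-1 consensus at the summit lay at 26.0 kb downstream of the 5′ end (fold 10.4), 10.2 kb upstream (8.92) and 1.66 kb upstream (7.57). A peak in the last part of the gene, 7.37 kb from the 5′ end and with its summit in an exon, had a fold of 7.99, and the next one, 8.33 kb from the 5′ end, had a fold of 6.97.

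Pvt1 (chr15:62037986-62378096, plus strand) is by far the longest member, with a body of 340 kb, and held 24 of the 27 peaks counted for it. That is 7.06 peaks per 100 kb of gene body, beside 2.33 for the genome and 3.15 for chromosome 15. Among the 375 lncRNA genes of at least 100 kb the median was 0.947 and 91.2% had fewer than Pvt1. Among the 2492 coding genes of that length the median was 2.38 and 90.4% had fewer. Of the 24 summits, 22 lay in introns and 2 in exons. Both exon peaks were TSS peaks.

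The TSS peak at the 5′ end, chr15:62037731-62038368, was 638 bp wide with 58 fragments (44.0 to 75.0) where 5.45 were expected, and a −log10 q of 36.0. The other, at chr15:62222681-62223022 and 185 kb into the gene, began 78 bp past an internal annotated start, with its summit 286 bp past it. It had a fold of 8.95 with 43 fragments. Its summit held an AP-1 consensus, which was the case for 1 of the 12 TSS peaks of the members and for 8.15% of all TSS peaks. The nearest coding gene was Myc, whose 5′ end lay 52.6 kb from that of Pvt1. Myc had 2 TSS peaks, the stronger with a fold of 5.82, a width of 952 bp and a −log10 q of 31.7. The best fold at Pvt1 was thus the higher, while the Myc peak was the wider. The fold falls with the expected pileup, which is not given here for Myc. These folds therefore do not rank the promoters of Pvt1 and Myc by accessibility.

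**Figure D5:**
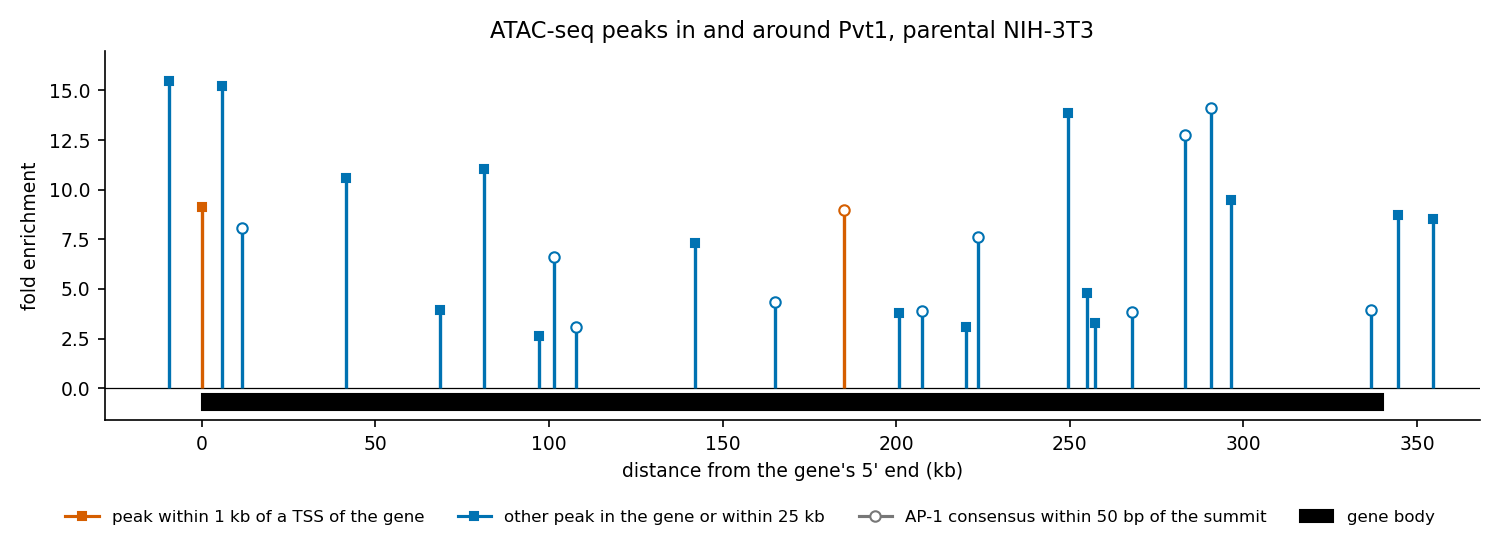
Fold enrichment (y axis) of the 27 peaks in Pvt1 or within 25 kb of it against the distance of the summit from the 5′ end (x axis, kb), with the gene body as a black bar, TSS peaks in orange and an AP-1 consensus at the summit as an open circle. Peaks ran the length of the gene, and the strongest lay near the 5′ end and between 249 and 291 kb.

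The 27 peaks ranged from a fold of 2.63 to one of 15.5, with a median of 7.59, 7 of them at 10 or more and 11 below 5. The strongest lay 9.45 kb upstream (fold 15.5) and 5.89 kb downstream (15.2) of the 5′ end, flanking the promoter. A second set of strong intronic peaks lay toward the 3′ end, at 249 kb (13.9), 283 kb (12.8) and 291 kb (14.1). The peak at 249 kb had 138 fragments, the most of any peak of the 10 genes. The distance between neighbouring summits ran from 2.16 to 40.4 kb. The TSS peak and 2 of the peaks toward the 3′ end are shown as windows of 50 bp to either side of the summit. Capitals mark the cAMP response element in the first, AP-1 in the second, where TGAGTCA is TGACTCA read on the other strand, and AP-1 with a CCAAT box read on the other strand in the third.
Pvt1 5′ end, chr15:62037977-62038077, plus strand: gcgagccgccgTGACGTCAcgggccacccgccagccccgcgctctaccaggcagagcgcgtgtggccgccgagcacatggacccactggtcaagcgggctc
Pvt1 283 kb, chr15:62321098-62321198, plus strand: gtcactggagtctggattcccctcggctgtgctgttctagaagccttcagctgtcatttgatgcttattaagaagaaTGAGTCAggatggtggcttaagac
Pvt1 291 kb, chr15:62328567-62328667, plus strand: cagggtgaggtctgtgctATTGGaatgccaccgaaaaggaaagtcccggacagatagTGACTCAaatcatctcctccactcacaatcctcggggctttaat

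AP-1, the dimer of Fos and Jun proteins, is a family of TFs with sites at many enhancers of fibroblasts. Of 42 member peaks more than 1 kb from any TSS, 15 held TGACTCA within 50 bp of the summit, or 35.7% (Wilson interval 23.0 to 50.8%). The background was 26.4% of the 47192 such peaks in the list, which lay inside that interval. Pvt1 had 10 of 23, or 43.5% (25.6 to 63.2%), and the other members 5 of 19, or 26.3% (11.8 to 48.8%), and both of these intervals also held the background. Among the distal member peaks, the median fold was 6.63 with the motif and 6.72 without it, and over all distal peaks it was 6.31 and 5.30. Distal member peaks had a median fold of 6.68 and a width of 381 bp, beside 5.54 and 278 bp over all distal peaks. These medians carry no interval and lean on a single gene, since Pvt1 held 23 of the 42 distal peaks and 10 of the 15 with the motif. The CCAAT box was in 6 of the 42, beside 13.8% of all distal peaks, and the cAMP response element and the CArG box were in none, beside 0.206% and 0.625%.

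Other lists of noncoding genes were set beside the members. Of 16 other snoRNA hosts, 14 were matched to the annotation and 12 had a TSS peak, with a median fold of 9.41 (lowest 4.96 at Snhg20, highest 15.9 at Snhg6). Snhg11, which is annotated as protein-coding, and Snhg14 had none. Of 22 other well-studied lncRNAs, 21 were matched and 16 had a TSS peak, with a median of 9.32 (lowest 6.43 at Mir22hg, highest 14.7 at Rpph1, the RNA of RNase P). Meg3, H19, Miat, Hottip and Fendrr had none. Hotair, whose peak was the weakest of the members, lay below the lowest value of both lists, and so did Neat1.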

How the data were processed

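The analysis used 1 ATAC-seq peak list, that of the parental NIH-3T3 library. Paired-end reads had been mapped by the authors with STAR 2.5.3a against mm10, keeping unique alignments. Duplicates were then taken out with Picard, and MACS2 2.1.1.20160309 was run on whole fragments, per the methods and the submitters' processing notes. The methods give a range of read numbers for all libraries, but neither the exact number for this one nor a shift of fragment ends for the Tn5 cut is given in the sources used here. For each peak the deposited values comprise a score, which was not used, the fold enrichment (a ratio), and the p and q values as −log10 p and −log10 q. The lowest −log10 q was 1.30.

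Coordinates are those of mm10 (GRCm38), counted from 1, with the GENCODE M21 annotation and the RefSeq sequence of the same build. A peak belonged to a gene if any base lay within 1 kb of the start of an annotated transcript, in the gene, or within 25 kb of it. Norad was matched through its RefSeq synonym. Motifs were searched on both strands. Summit fragments were solved from the deposited fold and −log10 p by bisection. They came out within 0.02 of a whole number at 99.967% of summits and at all 68 member peaks, and in 100% of 2000 simulated summits. Intervals are exact Poisson for fragments, carried to the fold with the expected pileup held fixed, and Wilson for shares. RefSeq promoter entries were matched for 6 members; none was used for Neat1, Norad, Pvt1 and Hotair. Named were all members and their TSS peaks, up to 3 other peaks per member with the highest fold, peaks with AP-1, the nearest coding genes, and genes starting in a TSS peak. The Pvt1 peak at 249 kb, the exon peak of Dnm3os and the one next to it, and further peaks between Malat1 and Neat1 and upstream of Neat1 lay outside this rule and were named after their values were seen.

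The members and lists were chosen with earlier results of these data known. The alternatives tried were peaks at a q of 0.01 or 1e-05, peaks with a fold of 5 or more, other TSS distances and windows, summits in place of intervals, and a 100 bp to either side or whole-peak motif search. Software was pysam 0.24.0, matplotlib 3.10.9, SciPy 1.17.1, pandas 2.3.3, NumPy 2.4.6 and Python 3.11.15.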

Additional observations from a re-analysis of the deposited data

How the results depend on the processing

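No paired analysis was possible because there was 1 library and no comparison between samples. The 10 members with a TSS peak became 9 at a q of 1e-05 (without Hotair), 8 at a fold of at least 5 (without Hotair and Neat1), 8 when the peak had to cover a start base (without Hotair and Malat1), and 9 within 500 bp or by summit (without Malat1). They stayed at 10 within 2 kb and by the 5′ end. The median fold of their strongest TSS peak ran from 8.32 to 9.05. Peaks within 25 kb numbered 68 and fell to 40 at a fold of at least 5, since peaks are left out there, with 54 at a q of 1e-05, 55 within 10 kb and 89 within 50 kb. The share of distal member peaks with AP-1 was 33.3% at a fold of at least 5, 35.5% at a q of 1e-05, and 45.2% both within 100 bp of the summit and over the whole peak. Over all distal peaks it was 30.7%, 28.5%, 36.5% and 40.8% in these settings.

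The share of lncRNA genes with a TSS peak, 21.3%, was 20.0% at a q of 1e-05, 17.3% at a fold of at least 5, 12.9% with a start base covered, 18.1% within 500 bp, 26.2% within 2 kb, 20.5% by the 5′ end and 19.7% by summit. For coding genes, 53.7% became 52.0%, 48.8%, 48.7%, 52.0%, 56.5%, 48.9% and 53.02% in the same order. In each of these settings the members' share was above both. With 14 to 138 fragments at the member summits, a fold at the weakest peaks is known only to within about its own counting interval.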

Other observations

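At 3 of the peaks around these genes, the 50 bp to either side of the summit consisted wholly of soft-masked bases, which are repeats in the reference. These were the strongest peak at Pvt1, 9.45 kb upstream with a fold of 15.5 and a GC content of 27.7%, a peak at 268 kb in Pvt1 with a fold of 3.86 and an AP-1 consensus, and the peak 1.47 kb upstream of Norad with a fold of 4.20. Uniquely mapped reads were kept upstream, and how far repeats lower the fragments at such places was not tested.

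The peak 26.8 kb downstream of the Hotair start lay within 1 kb of a TSS of Hoxc13, and held the E-box CACGTG at 2 places and the GC box at 2 places within 50 bp of its summit. At least 1 E-box was present at 3.86% of all TSS peak summits and 1.72% of distal ones, and at least 1 GC box at 30.5% and 3.52%. The peak 18.9 kb upstream of Hotair lay within 1 kb of starts of Hoxc10 and Hoxc5 and held a cAMP response element. Among all TSS peaks, its matching background, 1.36% had one, and 0.206% of distal peaks did.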
